A study of Mus musculus with 10 samples.

Results

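The autophagy and lysosome genes described here are a list of 35 mouse genes that reaches from the ULK kinases, which start autophagy, to the cathepsins, which digest its cargo. The list names its genes and uses no threshold on their values, though it was drawn up with earlier results of these data known, and 34 of them were measured among the 19938 genes that the arrays name by a single symbol. Where a gene had several features, the feature with the highest mean over all 10 arrays stood for it. The cargo receptor Optn was not analysed here. Expression was measured on Affymetrix Gene ST arrays in total RNA of whole liver. The mice were male C57BL/6J, aged 8 weeks when an adenovirus was given through the tail vein, and the livers were taken 3 weeks later in the fed state. In 5 mice the virus carried Phf2, a histone demethylase of the plant homeodomain finger family (Phf2 mice), and in 5 control mice it carried the green fluorescent protein (GFP mice). All 10 mice had thus received an adenovirus, so an uninjected liver is not part of the comparison. Per the study's methods, mice that did not overexpress the transgene were taken out of the cohorts, and neither randomization nor blinding was used. The comparison asks how the genes of autophagy and of the lysosome differ in level between livers with Phf2 overexpression and livers with GFP.

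In autophagy a cell wraps part of its own content in a double membrane, the autophagosome, which then fuses with a lysosome so that acid hydrolases can break the content down. The ULK complex receives the nutrient signal of the mTOR kinase, a lipid kinase complex around Becn1 marks the site, and a conjugation cascade that resembles ubiquitination attaches the Atg8-family proteins to the growing membrane. In liver the process is known for supplying amino acids and fatty acids in fasting, and for the breakdown of lipid droplets, glycogen and damaged mitochondria. Tfeb and Tfe3 are transcription factors of many lysosomal genes and bind a DNA element with the core CACGTG.

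Array values were log2 RMA values, in which 1 unit is a factor of 2 in signal, and the array medians lay between 5.06 and 5.18. Over all genes, limma called 9.67% at a Benjamini-Hochberg adjusted p under 0.05, with 5.43% higher and 4.24% lower in Phf2 mice. The defining markers of hepatocytes were present: the mean of 7 was 11.89 to 12 in GFP mice and 11.44 to 11.87 in Phf2 mice, and 3 of the 7 fell. In a piece of liver, fewer cells of a type and less RNA per cell cannot be told apart. The feature of Phf2 itself read 6.27 to 6.58 in Phf2 mice and 6.32 to 6.54 in GFP mice and was not called (log2 fold change -0.05 ± 0.08 SE, adjusted p = 0.751). No source used here says whether that feature matches the transcript of the virus, and it therefore gives no check of the labels. Pancreatic enzyme transcripts were also found: the mean of 10 exocrine pancreas markers ranged from 5.95 to 12.08 in GFP mice and from 5.72 to 10.49 in Phf2 mice, and 0 of the 10 were called by limma, as by the methods' t-test (their analysis of variance per gene, here between 2 groups), with 0 at an unadjusted p under 0.05.

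Most of the list kept close to its level in GFP mice. Of the 34 measured genes, 3 rose in Phf2 mice (Ulk1, Ctsd and Atg12), 1 fell (Ulk2) and 30 did not pass the test. The share called was 11.8%, beside 9.67% over all genes. The median log2 fold change of the list was -0.01, as was that of all genes. Among the 30 genes not called, the log2 fold changes ran from -0.22 to 0.19, and the whole 95% interval of each lay within a 1.5-fold change in either direction, with bounds from -0.45 to 0.38. At an unadjusted p under 0.05, 7 of these 30 differed, 6 of them (Pik3c3, Uvrag, Atg9a, Atg3, Gabarapl1 and Ctsl) with lower values in Phf2 mice and 1 (Ctsb) with higher values. The share of all genes at this cut was not computed, so these counts show nothing particular to the list. In 4 of 34 genes (11.8%) the values of the groups did not overlap, beside 9.08% over all genes. Within a group, the SD between mice was 0.02 to 0.29, with a median of 0.12 in GFP mice and 0.11 in Phf2 mice.

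**Figure D1:**
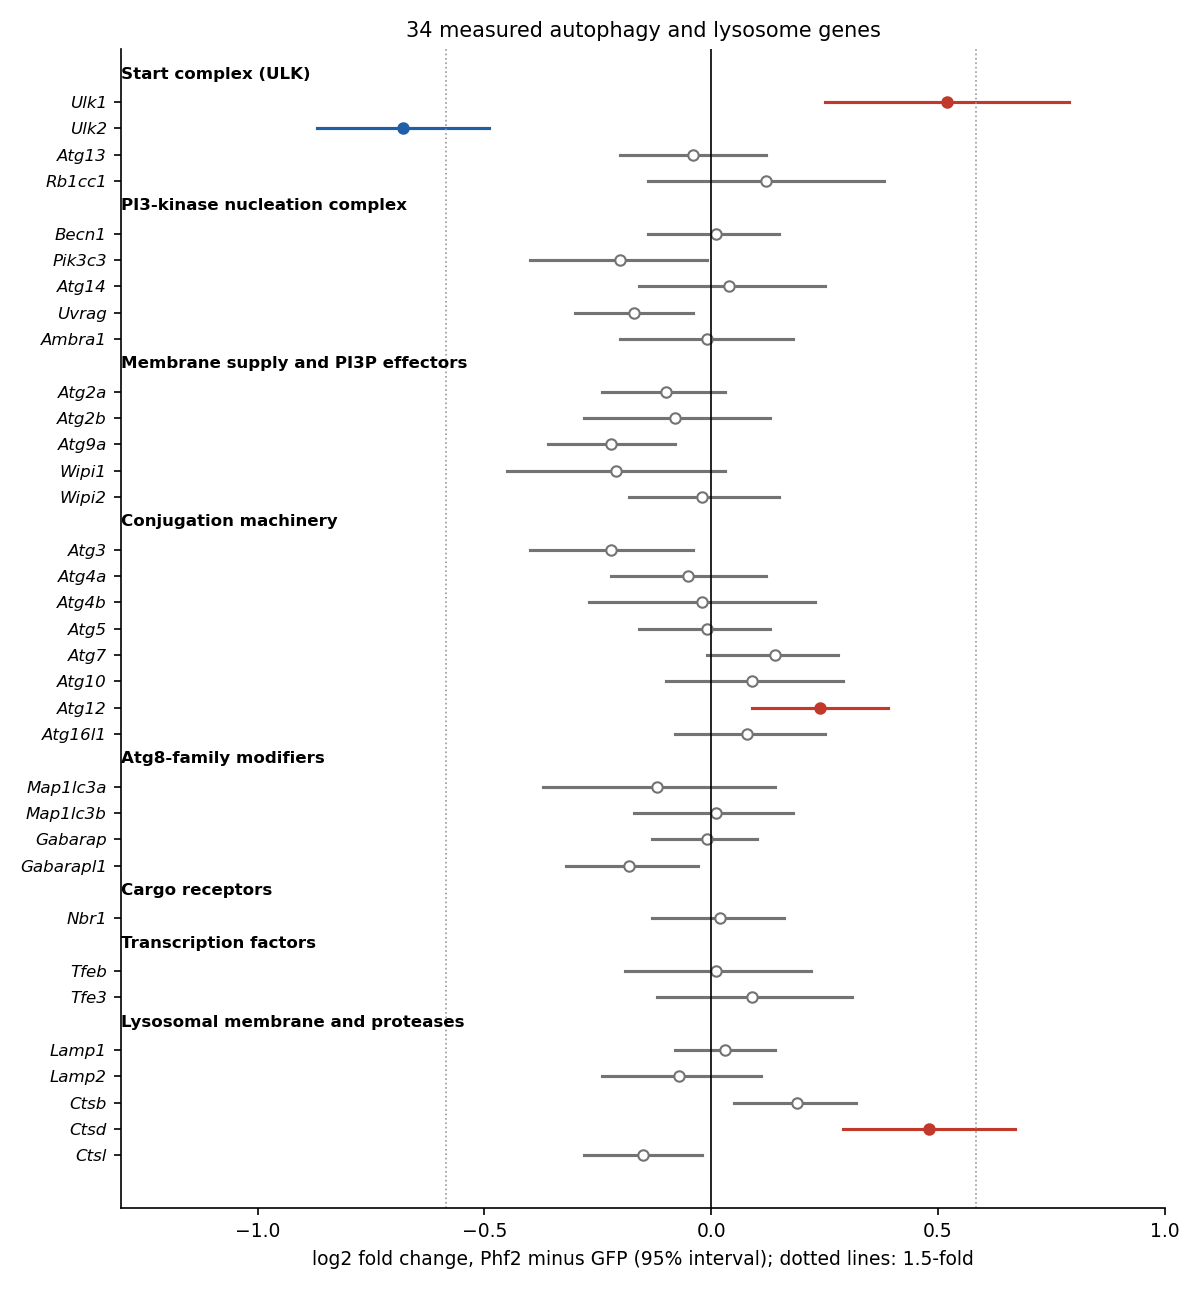
Log2 fold change of each of the 34 measured genes, Phf2 minus GFP (5 mice per group), with its 95% interval from limma; genes stand under their role, red marks a gene that rose and blue one that fell at an adjusted p under 0.05, and dotted lines mark a 1.5-fold change. Ulk1 at 0.52 and Ulk2 at -0.68 stand at opposite ends, and every open circle has its whole interval between the dotted lines.

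The start complex held the largest changes of the list, and they ran in opposite directions. Ulk1 and Ulk2 are related serine/threonine kinases that, together with Atg13 and the scaffold Rb1cc1, begin the autophagosome. Ulk1 read 6.20, 6.50, 6.37, 6.23 and 6.22 in the GFP mice 1 to 5 and 6.64, 6.84, 6.97, 7.20 and 6.45 in the Phf2 mice 1 to 5. All Phf2 mice but the fifth were above every GFP mouse. The rise was 1.43-fold (log2 fold change 0.52 ± 0.12 SE, n = 5 per group, adjusted p = 0.0200), and the exact permutation test, two-sided, gave p = 0.0159. Ulk2 read 7.98, 7.90, 7.88, 7.80 and 8.03 in GFP mice and 7.43, 6.98, 7.38, 7.20 and 7.16 in Phf2 mice. Every Phf2 mouse was below every GFP mouse, and the fall was 1.61-fold (log2 fold change -0.68 ± 0.09 SE, adjusted p = 0.000435). The exact permutation p of Ulk2 was 0.00794, the smallest that 5 mice against 5 can give. Atg13 had a log2 fold change of -0.04 ± 0.07 SE (adjusted p = 0.832) and Rb1cc1 of 0.12 ± 0.12 SE (adjusted p = 0.642), and their groups overlapped. As these are 2 different features, the levels of Ulk1 and Ulk2 cannot be set against each other, and whether total ULK kinase changed was not measured.

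**Figure D2:**
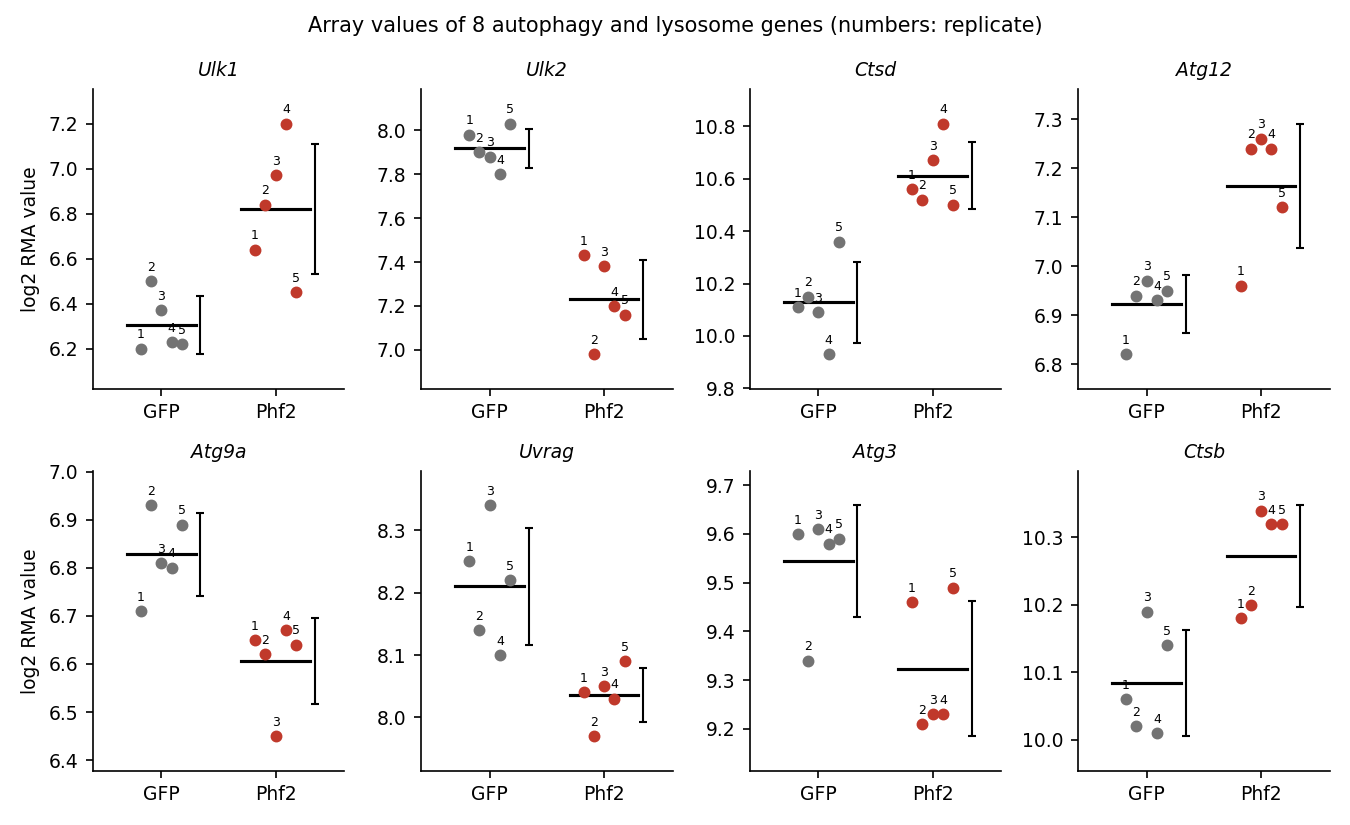
Log2 RMA values of 8 genes of the list on each array, with the replicate number beside each point, the group mean as a line and the SD as a bar to its right (n = 5 per group; each panel has its own axis, which does not start at 0). Ulk2, Atg9a and Uvrag show Phf2 mice below all GFP mice, Ctsd shows them above, and the groups overlap in Ulk1, Atg12, Atg3 and Ctsb.

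In the lipid kinase complex that marks the site of the new membrane, 0 of 5 genes were called by limma, while 2 of the 5 had an unadjusted p under 0.05 (1 with the methods' t-test). Becn1, its scaffold, read 6.71 to 6.98 in GFP mice and 6.78 to 6.97 in Phf2 mice (log2 fold change 0.01 ± 0.07 SE, adjusted p = 0.967). Pik3c3, the catalytic subunit, had a log2 fold change of -0.20 (adjusted p = 0.194). Atg14, which directs the complex to autophagy, had a log2 fold change of 0.04, and Ambra1, a regulator of Becn1, one of -0.01. Uvrag, the partner that takes the place of Atg14 in the endosomal form of the complex, read 8.25, 8.14, 8.34, 8.10 and 8.22 in GFP mice and 8.04, 7.97, 8.05, 8.03 and 8.09 in Phf2 mice. Its groups just failed to overlap, with a log2 fold change of -0.17 ± 0.06 SE and an adjusted p of 0.101.

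The genes that supply membrane to the autophagosome or read its lipid mark, Atg2a, Atg2b, Atg9a, Wipi1 and Wipi2, all had log2 fold changes below 0, between -0.22 and -0.02, and 0 of 5 were called by limma (1 of the 5, Atg9a, at an unadjusted p under 0.05, in limma and in the methods' t-test). Atg9a, the transmembrane scramblase of the seed vesicles, read 6.71, 6.93, 6.81, 6.80 and 6.89 in GFP mice and 6.65, 6.62, 6.45, 6.67 and 6.64 in Phf2 mice. Each Phf2 mouse was below each GFP mouse, and the adjusted p was 0.0528 (log2 fold change -0.22 ± 0.07 SE). Wipi1, a reader of the lipid mark, had a log2 fold change of -0.21 ± 0.11 SE with overlapping groups (adjusted p = 0.289), and that of its relative Wipi2 was -0.02. The lipid transfer proteins Atg2a and Atg2b had log2 fold changes of -0.10 and -0.08.

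Of the 8 genes of the conjugation machinery, Atg12 rose and the other 7 did not pass the test. Atg12 is the ubiquitin-like protein that is joined to Atg5, and the conjugate with Atg16l1 directs lipidation of the Atg8 family. It read 6.82, 6.94, 6.97, 6.93 and 6.95 in GFP mice and 6.96, 7.24, 7.26, 7.24 and 7.12 in Phf2 mice. The value of the Phf2 mouse 1 was within the range of the GFP mice, while the other 4 were above it (1.18-fold, log2 fold change 0.24 ± 0.07 SE, adjusted p = 0.0476). The call of Atg12 is marginal: it was lost in 15 of 19 alternative analyses without a marker covariate, with adjusted p from 0.0603 to 0.121 in those 15. Its partners Atg5 and Atg16l1 had log2 fold changes of -0.01 and 0.08. Atg7, the activating enzyme, read 7.67 to 8.00 in GFP mice and 7.88 to 8.04 in Phf2 mice (log2 fold change 0.14, adjusted p = 0.264), and Atg10, the conjugating enzyme of Atg12, had a log2 fold change of 0.09. Atg3, the conjugating enzyme of the Atg8 family, read 9.60, 9.34, 9.61, 9.58 and 9.59 in GFP mice and 9.46, 9.21, 9.23, 9.23 and 9.49 in Phf2 mice (log2 fold change -0.22 ± 0.08 SE, adjusted p = 0.121). The low value of the GFP mouse 2 lay among those of the Phf2 mice. The proteases that trim the Atg8 family, Atg4a and Atg4b, had log2 fold changes of -0.05 and -0.02.

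The Atg8-family modifiers themselves did not pass the test. Map1lc3b, the common marker of autophagosomes, read 9.46 to 9.77 in GFP mice and 9.48 to 9.72 in Phf2 mice (log2 fold change 0.01 ± 0.08 SE). Map1lc3a had a log2 fold change of -0.12 and Gabarap, a relative of later steps, one of -0.01. Gabarapl1 read 8.92 to 9.16 in GFP mice and 8.78 to 9.02 in Phf2 mice (log2 fold change -0.18 ± 0.07 SE, adjusted p = 0.135). The features used for Map1lc3b and Atg4a have numbers that lie among those of genes on other chromosomes, unlike the other 35 of 37 features of the list, and what they read there was not tested. The second feature of each gave log2 fold changes of -0.01 for Map1lc3b and -0.06 for Atg4a, and neither was called. These values are of mRNA, and neither lipidation of these proteins nor the flux through autophagy was measured. Nbr1, a receptor that tethers ubiquitinated cargo to the Atg8 family, had a log2 fold change of 0.02 ± 0.07 SE (adjusted p = 0.927).

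The transcription factors of the lysosomal programme did not differ detectably in mRNA level. Tfeb read 4.29 to 4.67 in GFP mice and 4.37 to 4.76 in Phf2 mice (log2 fold change 0.01 ± 0.10 SE, adjusted p = 0.959), and it was the dimmest feature of the list. Tfe3 had a log2 fold change of 0.09 ± 0.10 SE (adjusted p = 0.658). Tfeb and Tfe3 are known to be controlled by phosphorylation and entry into the nucleus, which an array does not measure.

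Among the 5 lysosomal members, Ctsd rose and the 4 others were not called. Ctsd, the main aspartic protease of the lysosome, read 10.11, 10.15, 10.09, 9.93 and 10.36 in GFP mice and 10.56, 10.52, 10.67, 10.81 and 10.50 in Phf2 mice. Every Phf2 mouse was above every GFP mouse, with a 1.40-fold rise (log2 fold change 0.48 ± 0.09 SE, adjusted p = 0.00389, exact permutation p = 0.00794). The cysteine protease Ctsb read 10.06, 10.02, 10.19, 10.01 and 10.14 in GFP mice and 10.18, 10.20, 10.34, 10.32 and 10.32 in Phf2 mice, and only the GFP mouse 3 reached into the Phf2 range (log2 fold change 0.19 ± 0.06 SE, adjusted p = 0.0827). The cysteine protease Ctsl had a log2 fold change with the opposite sign, -0.15 ± 0.06 SE (adjusted p = 0.162). The membrane glycoproteins Lamp1 and Lamp2, which line the lysosome, had log2 fold changes of 0.03 and -0.07. Lamp1 read 10.28 to 10.38 in GFP mice and 10.32 to 10.41 in Phf2 mice, which puts its 95% interval between -0.08 and 0.14.

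The promoters were searched for the core of the element of Tfeb and Tfe3 as a description, without a test. The RefSeq windows of GRCm38.p6 hold 250 bases before and 50 after each gene's start, and 27 of the 34 genes had a window. The hexamer CACGTG, which reads the same on both strands, was in 7 of the 27 (25.9%), beside 9.5% of the windows of all genes tested. They are Ctsd, Ctsl, Lamp1, Atg3, Atg5, Atg7 and Atg14, of which only Ctsd was called. The longer TCACGTGA, also a palindrome and containing the hexamer, was in the windows of Ctsd and Atg3 (7.41%, beside 1.52% of all genes tested). The windows of Ulk1 and Ulk2 held neither. The stretches around the longer motif, in capitals and ahead of the gene's start, are shown for the called gene Ctsd, for Atg3, which was not called, and for Atp6v1a, a subunit of the lysosomal proton pump that rose. They lie at chr7:142387879-142387966 (minus strand), chr16:45158717-45158804 (plus strand) and chr16:44139344-44139431 (minus strand). 
Ctsd: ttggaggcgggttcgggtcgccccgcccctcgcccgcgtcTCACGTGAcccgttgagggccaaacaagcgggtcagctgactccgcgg
Atg3: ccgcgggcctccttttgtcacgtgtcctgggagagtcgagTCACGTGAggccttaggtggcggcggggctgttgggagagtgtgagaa
Atp6v1a: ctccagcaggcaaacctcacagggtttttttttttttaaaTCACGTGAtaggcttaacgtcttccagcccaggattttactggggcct
The same motif thus stood ahead of a gene that rose and ahead of one that was not called, and a match of letters does not show that a factor was bound.

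The rest of the pathway was described with 180 further genes in 8 groups, of which 169 were measured. Of these, 31 rose and 10 fell in Phf2 mice, so 24.3% were called, beside 9.67% over all genes. These genes too were listed with earlier results of these data known, so the gap between the shares is a description and no independent evidence. Their median log2 fold change was 0.03. Among the 29 genes of the nutrient control of autophagy, 3 rose and 1 fell. The share called was 13.8%, not far from the 9.67% over all genes. Mtor, the kinase that restrains ULK when nutrients are plentiful, read 6.36, 6.53, 6.40, 6.50 and 6.72 in GFP mice and 7.07, 7.17, 7.46, 7.69 and 7.00 in Phf2 mice, a rise of 1.71-fold without overlap (log2 fold change 0.78 ± 0.13 SE, adjusted p = 0.00204). Fnip2, a folliculin partner of the same route, rose by 0.61 (adjusted p = 0.00508), and Deptor, an inhibitor of mTOR, fell by 0.38 (adjusted p = 0.00614) on the log2 scale. The third gene that rose was the stress-induced Sesn2 (log2 fold change 0.51), which is named after its values were seen.

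Further core autophagy genes moved in both directions, with 4 of 22 higher and 3 lower. The share called was 31.8%, beside 9.67% over all genes. Trp53inp1, a stress protein that binds the Atg8 family, rose by 0.58 (adjusted p = 0.0118) on the log2 scale, whereas its relative Trp53inp2 fell by 0.47 (adjusted p = 0.0127). Bcl2l1, an anti-apoptotic protein that binds Becn1, rose by 0.46 (adjusted p = 0.00172), and the kinase Dapk1 fell by 0.30 (adjusted p = 0.0459). The other genes called, also named after their values were seen, were Vmp1 (0.26) and Sh3glb1 (0.34), which rose, and the ULK complex subunit Atg101 (-0.25), which fell.

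Of 18 receptors of selective autophagy, 2 rose and 0 fell by limma, with 0 lower at an unadjusted p under 0.05. The share called was 11.1%, near the 9.67% over all genes. Sqstm1, the receptor p62 that is itself consumed with its cargo, read 9.57, 9.60, 9.59, 9.51 and 9.58 in GFP mice and 9.91, 10, 10.24, 10.31 and 9.93 in Phf2 mice. The GFP mice lay within 0.09 of each other and every Phf2 mouse was above them (1.42-fold, log2 fold change 0.51 ± 0.08 SE, adjusted p = 0.00217). Stbd1, a receptor for glycogen, rose by 0.49 (adjusted p = 0.00144). Of the 17 tethers and SNAREs that fuse autophagosome and lysosome 11.8% were called: Vps41 of the HOPS tether rose by 0.41 (adjusted p = 0.00333) and the SNARE Vamp7 fell by 0.51 (adjusted p = 0.00504).

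**Figure D3:**
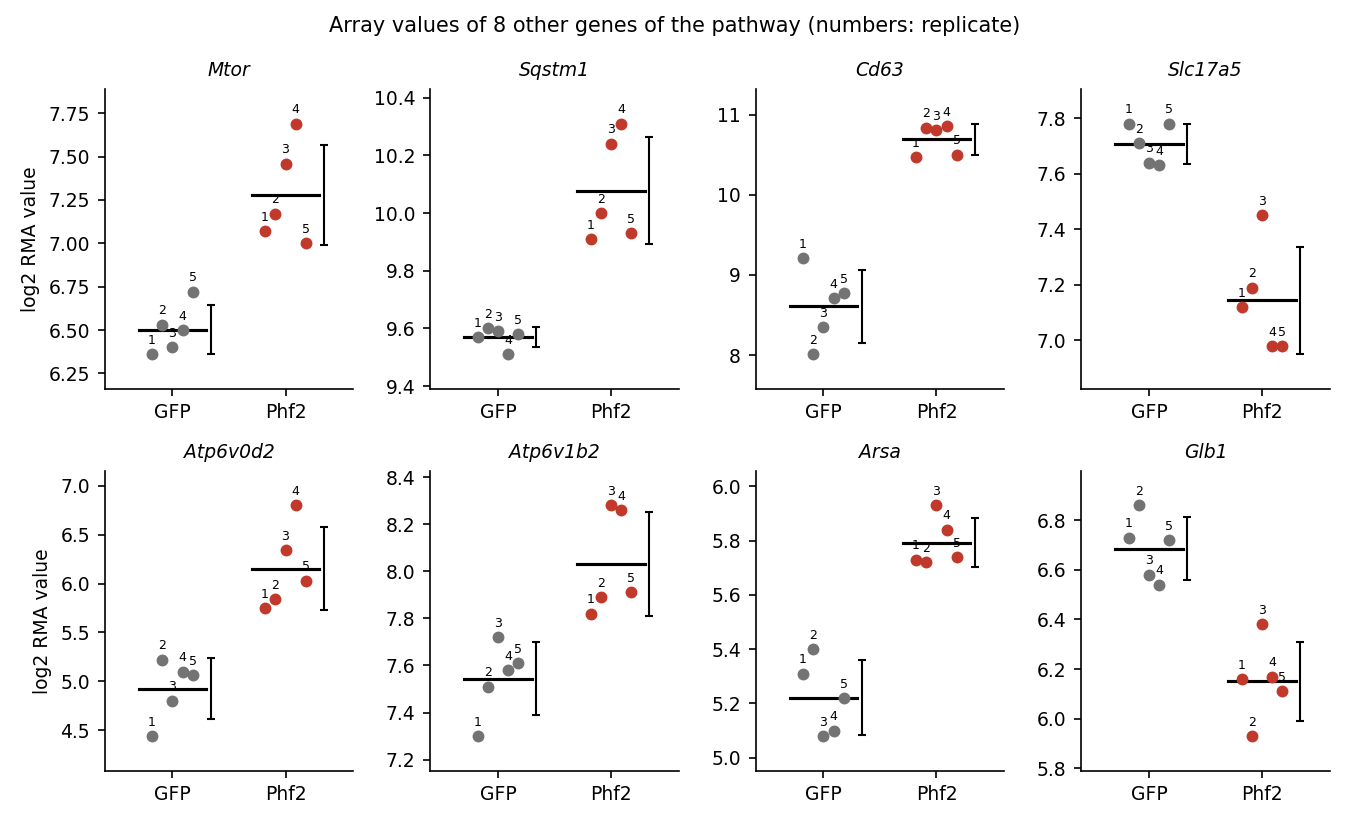
Log2 RMA values of 8 further genes of the pathway on each array, with replicate numbers, group means as lines and SDs as bars (n = 5 per group; each panel has its own axis, which does not start at 0). The groups do not overlap in any of the 8 panels; Slc17a5 and Glb1 are lower and the other 6 higher in Phf2 mice, and in Mtor, Sqstm1, Cd63 and Atp6v0d2 the Phf2 mouse 4 is the highest.

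The proton pump that acidifies the lysosome had the highest median of the groups. Of its 16 measured subunits, 7 rose and 0 fell by limma. With the methods' t-test 0 fell as well, and 0 of the 16 were lower at an unadjusted p under 0.05. The share that rose by limma was 43.8%, beside 5.43% over all genes, in a group listed with earlier results of these data known. The median log2 fold change was 0.26, beside -0.01 for all genes. Atp6v0d2, an isoform of the membrane sector known from osteoclasts and macrophages, read 4.44, 5.22, 4.80, 5.10 and 5.06 in GFP mice and 5.75, 5.84, 6.34, 6.80 and 6.03 in Phf2 mice (2.34-fold, log2 fold change 1.23 ± 0.20 SE, adjusted p = 0.00187). Its ubiquitous counterpart Atp6v0d1 had a log2 fold change of -0.09 (adjusted p = 0.601). Atp6v1b2, a subunit of the sector that hydrolyses ATP, read 7.30, 7.51, 7.72, 7.58 and 7.61 in GFP mice and 7.82, 7.89, 8.28, 8.26 and 7.91 in Phf2 mice (log2 fold change 0.49 ± 0.11 SE, adjusted p = 0.0125). The other subunits that rose, between 0.26 and 0.42 on the log2 scale, were Atp6v0e, Atp6v1a, Atp6v1c1, Atp6v1d and Atp6v1e1, named after their values were seen. The median level over the 16 subunits was 8.06 to 8.35 in GFP mice and 8.36 to 8.55 in Phf2 mice. The motif TCACGTGA was in 3 of the 10 promoter windows of the pump, those of Atp6v1a, Atp6v0e and Atp6v0d1, and the last of these genes was not called.

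Among 20 further lysosomal membrane proteins, 3 rose and 1 fell. The share called was 20%, beside 9.67% over all genes. Cd63, a tetraspanin of late endosomes and lysosomes, had the largest change of all 203 measured genes of the pathway. It read 9.21, 8.01, 8.35, 8.71 and 8.77 in GFP mice and 10.47, 10.84, 10.81, 10.86 and 10.50 in Phf2 mice, a rise of 4.25-fold (log2 fold change 2.09 ± 0.18 SE, adjusted p = 2.54e-05). The lowest Phf2 mouse was above the highest GFP mouse by more than the spread within the Phf2 mice. Laptm5 of haematopoietic cells rose by 0.70 (adjusted p = 0.0105), and Igf2r, the receptor that carries hydrolases to the lysosome, by 0.31 (adjusted p = 0.0380; named after its values were seen). Slc17a5, the sialic acid exporter, read 7.78, 7.71, 7.64, 7.63 and 7.78 in GFP mice and 7.12, 7.19, 7.45, 6.98 and 6.98 in Phf2 mice and fell 1.48-fold (adjusted p = 0.00161).

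The lysosomal enzymes other than Ctsb, Ctsd and Ctsl also changed in both directions. Of 16 further proteases and their inhibitors, 3 rose and 1 fell (25.0% called, beside 9.67% over all genes). Cstb, an inhibitor of cathepsins, rose by 0.61 (adjusted p = 0.0165), Ctss, a cathepsin of antigen-presenting cells, by 0.52 (adjusted p = 0.0479) and the asparaginyl endopeptidase Lgmn, named after its values were seen, by 0.51 (adjusted p = 0.0167). The aminopeptidase Ctsh fell by 0.46 (adjusted p = 0.00162). Of 31 hydrolases of lipids and sugars, 8 rose and 3 fell (35.5% called), with a median of 0.00. Arsa, which cleaves sulfatide, read 5.31, 5.40, 5.08, 5.10 and 5.22 in GFP mice and 5.73, 5.72, 5.93, 5.84 and 5.74 in Phf2 mice (1.49-fold, adjusted p = 0.000551), and Psap, the precursor of the saposins, rose 1.40-fold (adjusted p = 0.00751). The beta-galactosidase Glb1 read 6.73, 6.86, 6.58, 6.54 and 6.72 in GFP mice and 6.16, 5.93, 6.38, 6.17 and 6.11 in Phf2 mice (fell 1.45-fold, adjusted p = 0.00232), and the beta-mannosidase Manba and the glycogen-cleaving Gaa, the latter named after its values were seen, fell by 0.38 (adjusted p = 0.0151) and by 0.33 (adjusted p = 0.0411) on the log2 scale. Among the further genes that rose and had a promoter window, 4 of 25 (16.0%) held TCACGTGA, namely Atp6v1a, Atp6v0e, Igf2r and the alpha-galactosidase Gla, beside 9 of 117 (7.69%) of those that did not rise. The hexamer CACGTG was in 6 of the 25 (24.0%) and in 26 of the 117 (22.2%), which is nearly the same share.

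**Figure D4:**
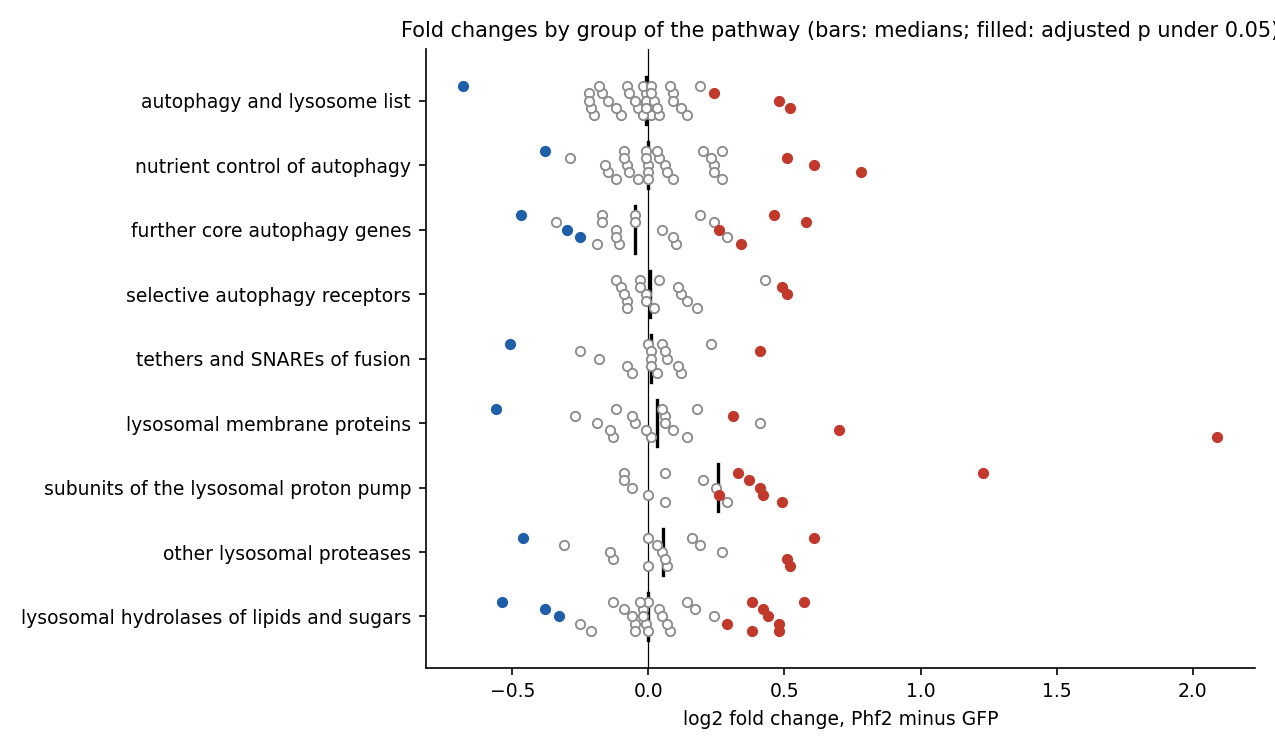
Log2 fold change, Phf2 minus GFP, of the 34 measured genes of the list (top) and of the 169 further measured genes in 8 groups, 1 point per gene, with the median of each group as a bar; filled red and blue points rose and fell at an adjusted p under 0.05. The median is near 0 in each group except the proton pump, where it is 0.26 and 7 of 16 genes are red, and Cd63 at 2.09 is the point farthest to the right.

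Markers of immune cells also differed between the groups, in directions that depended on the cell type. Over all genes, 5.43% rose and 4.24% fell, and the marker lists were chosen with earlier results of these data known. Of 4 B cell markers, 0 were called. The mean of 12 macrophage markers was 7.32 to 8.04 in GFP mice and 7.81 to 8.28 in Phf2 mice, and 7 of the 12 rose. The mean of 8 markers of resident Kupffer cells was 7.70 to 8.25 in GFP mice and 7.14 to 7.28 in Phf2 mice, and 5 of the 8 fell. Among these, Cd163 fell by 1.89 and Timd4 fell by 1.59 on the log2 scale. The mean of 7 T and NK cell markers was 4.71 to 5.05 in GFP mice and 5.28 to 5.98 in Phf2 mice, and 5 of the 7 rose. Cd68, Ctss and Laptm5 belong both to the macrophage markers and to the pathway, and without them 29 of 166 further genes rose. The Phf2 mice 3 and 4 had the highest macrophage and T and NK cell means. They were also the highest Phf2 mice for 26 of the 31 further genes that rose (12 and 14). The same held for Atg12, Ulk1 and Ctsd (1 and 2). These mice also had the lowest hepatocyte means (11.49 and 11.44). Among the Phf2 mice, the stellate cell mean was highest in mouse 3 (6.93) and the B cell mean in mouse 4 (5.48). A match with these mice is thus not particular to the macrophage and T and NK cell lists. Ctss and Laptm5 are among the 31 and help to form the macrophage mean, so their match is partly fixed in advance. The same share over all genes that rose was not computed, and a cause was not tested.

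With the macrophage mean as a covariate, 0 of 34 genes of the list rose by limma and 1 fell, beside 3 and 1 without it. This covariate was added after seeing the data. At an unadjusted p under 0.05, 1 gene of the list was higher and 4 were lower. Calls were lost over all 19938 genes as well: 231 rose and 172 fell in this fit, beside 1083 and 846 without the covariate. Ulk2 kept its call and its log2 fold change of -0.68 (adjusted p = 0.0221). The log2 fold change of Ulk1 went from 0.52 to 0.26 (adjusted p = 0.517), and that of Ctsd from 0.48 to 0.37 (adjusted p = 0.181). Of the 41 further genes called, 6 stayed called: Cd63, Arsa and Fuca1, which rose, and Vamp7, Slc17a5 and Ctsh, which fell. Several of the others lost the call with a log2 fold change of about the same size. Examples are Glb1 (-0.54 with and without the covariate), Sesn2 (0.55, beside 0.51) and Manba (-0.42, beside -0.38). That of Atp6v1b2 went from 0.49 to 0.19. Ctss and Laptm5 are themselves among the markers of the macrophage mean. A drop in either, such as that of Ctss from 0.52 to 0.05, was therefore partly fixed in advance. A lost call alone therefore does not show that the macrophage mean accounts for a change. The number of pump subunits that rose went from 7 to 0 (7 at an unadjusted p under 0.05), while their median log2 fold change was 0.21, beside 0.26. The T and NK cell mean does not overlap between the groups, so a fit with it can hardly separate the markers from the virus. In that fit 0 genes of the list were called by limma (5 were lower and 0 higher at an unadjusted p under 0.05), with Ulk2 at a log2 fold change of -0.70 (adjusted p = 0.19), Ctsd at 0.25 and Ulk1 at -0.11. Of the further genes 1 rose (Cd63, log2 fold change 2.18, adjusted p = 0.0310) and 54 genes in all rose. The part of these cells in the result was otherwise not tested. With the pancreas mean as a covariate, 2 genes of the list rose, 1 fell, and 31 and 10 of the further genes rose and fell.

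**Figure D5:**
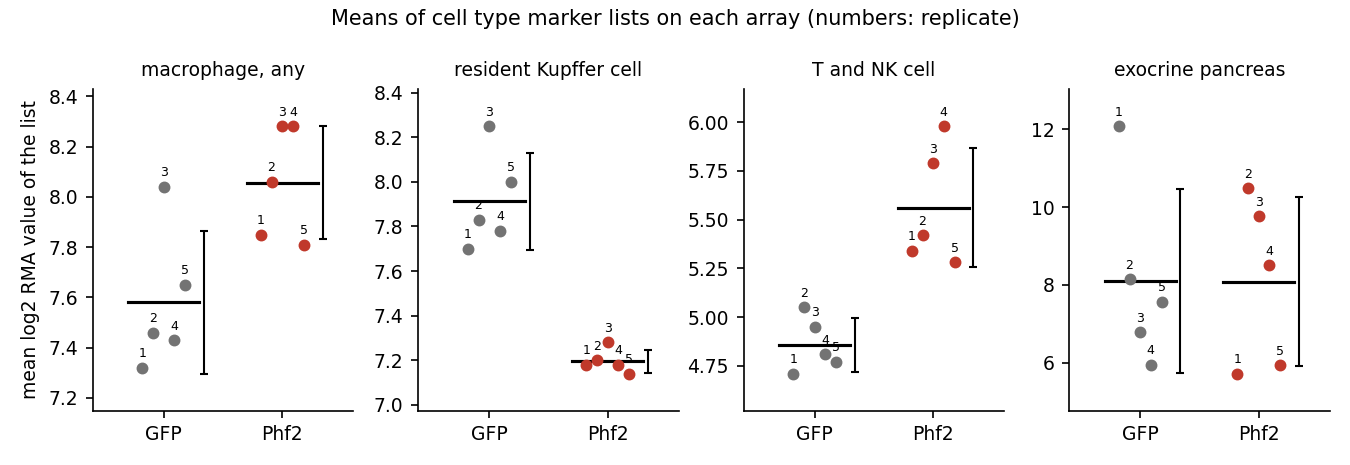
Mean log2 RMA value of 4 lists of cell type markers on each array, with replicate numbers, group means as lines and SDs as bars (n = 5 per group; each panel has its own axis, which does not start at 0). The Kupffer cell and T and NK cell means do not overlap between groups, the macrophage means overlap, and the pancreas means are highest in the GFP mouse 1 (12.08) and the Phf2 mouse 2 (10.49).

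The calls differed in how well they held. Ulk2 and Ctsd were called under all 19 alternative analyses that use an adjusted p of 0.05 and no marker covariate, with adjusted p from 0.000196 to 0.00639 for Ulk2 and from 0.00111 to 0.0273 for Ctsd. Ulk1 was called in 16 of the 19 and was not called without the GFP mouse 1 (adjusted p = 0.0504), without the Phf2 mouse 3 (adjusted p = 0.0502) or with the methods' t-test (adjusted p = 0.0746). Without the GFP mouse 1 or without the Phf2 mouse 3, 1 gene of the list rose instead of 3. Of the 41 further genes called, 26 were called in all 19. Ctss, Dapk1, Igf2r and Gaa were called in 8 of the 19 and Atg101 and Atp6v1d in 9. These 6 calls were thus marginal and lost in most of the 19, as was that of Atg12, which was kept in 4. At a 1.5-fold change and an unadjusted p under 0.05, 0 genes of the list rose and 1 fell, Ulk2, and 6 of the further genes rose. Over all 19938 genes, 475 rose and 231 fell by limma at this cut, so few genes of any kind pass it.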

How the data were processed

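Total RNA from the livers of 10 mice was amplified (NuGEN), biotin labelled and hybridized to Affymetrix Gene ST arrays. Per the study's methods, the authors ran RMA in Bioconductor and used Partek, with no version named. The deposited table holds log2 values of 35556 features. The array named in the methods is a human one, but the annotation of the features is that of a mouse Gene ST array. Of the features, 21789 had 1 gene symbol, 1621 several and 12146 none; 21698 matched the mouse annotation, and gene names come from it.

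Per gene, the feature with the highest mean was kept (19938 genes). Phf2 and GFP mice were compared by limma (version 3.58.1, under R 4.3.3; lmFit, then eBayes; without covariates; Benjamini-Hochberg over all genes, threshold 0.05), and single genes also with a two-sided exact permutation test. The code was tested on simulated data. The number of arrays limits the precision. Labels call the samples biological replicates; array correlations were 0.9783 to 0.9932, and 0 pairs of arrays were identical. The labels do not say that the replicate numbers pair the mice, and they were not treated as pairs. The genes of the list, the further pathway genes and the markers were chosen with earlier results of these data known. Genes named were every gene of the list, and of each further group up to 2 called genes with the largest rise and up to 2 with the largest fall. Other tests, normalizations, filters, left-out mice and marker covariates were tried as alternatives. The B cell (0 of 4 called), sinusoidal endothelium (1 of 6) and stellate cell (1 of 7) markers were also checked. Sequences are from RefSeq (GRCm38.p6).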

Additional observations from a re-analysis of the deposited data

Results flagged for a closer look

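In 4 of 68 groups of 5 mice, 1 mouse stood apart from the other 4 of its group by Dixon's test, and chance flags about 1 in 20 groups. The Phf2 mouse 3 was the lowest of its group for Atg9a, at 6.45 with the nearest other mouse at 6.62, and the highest of its group for Gabarapl1, at 9.02 with the nearest at 8.84. The GFP mouse 2 was the lowest for Atg3, at 9.34 with the nearest at 9.58. The GFP mouse 1 was the lowest for Atg12, at 6.82 with the nearest at 6.93. Without the GFP mouse 1, the adjusted p of Atg12 was 0.114, against 0.0476 with all mice.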

How the results depend on the processing

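The precision is limited by 5 mice per group. With the methods' t-test 1 gene of the list rose. At a 1.5-fold change with an unadjusted p under 0.05 there were 0 that rose, with limma and with the t-test. Of the further genes 6 rose and 0 fell at this cut with either. Over all genes, 475 rose and 231 fell there with limma, and 464 and 230 with the t-test. The genes of the list that fell numbered 2 with dim genes left out, 3 with further quantile normalization, 2 with each array centred on its median and 2 at an adjusted p under 0.1, the added ones being Atg9a (adjusted p = 0.0242 to 0.0463 in the first 3) and, after quantile normalization, Uvrag (adjusted p = 0.0484); Ctsb was higher there (adjusted p = 0.0425). These scalings also turned the split over all genes from 1083 higher and 846 lower to 1024 and 1066 and to 829 and 959. Leaving out 1 mouse at a time, the list had 1 to 3 genes higher and 1 to 2 lower, the further genes 25 to 32 higher and 7 to 11 lower, and the median ranged from -0.0394 to 0.0033. With the replicate number as a replicate block, 2 genes of the list rose and 1 fell, 26 further genes rose and 7 fell. Deviations of same-numbered mice correlated between -0.291 and -0.042, which gives no sign that the numbers pair the mice but cannot exclude it. With the macrophage covariate 0 of the list and 3 further genes rose and 5 further genes fell. With the T and NK cell covariate 0 of the list rose and 0 fell, 1 further gene rose and 0 fell, the median was -0.1006, and the sign of Ulk1 turned (-0.11, adjusted p = 0.931); the cause was not tested. The counts of calls over all genes were 231 higher and 172 lower with the former and 54 and 14 with the latter.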
